A study of Mus musculus with 9 samples.

Results

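The thyrotroph genes were 6 genes chosen by name from knowledge of the cells that make thyroid-stimulating hormone: *Tshb*, *Gata2*, *Trhr*, *Isl1*, *Dio2* and *Thrb*. Earlier results of these data were known when they were chosen. All 6 were found by symbol among the 55450 genes in the count files, and all 6 passed the filter on low counts, which left 19371 genes for testing. Poly(A) RNA was sequenced from 9 mouse samples. Rathke's pouch, the embryonic precursor of the anterior pituitary, was taken from 7 single embryos at e13.5, and the pituitary without its posterior lobe from 2 adults at postnatal week 8. All animals had a mixed 129Sv/c57BL6J background. The embryos were Sox2Egfp/+, carrying a reporter in place of 1 copy of the progenitor gene *Sox2*, while no genotype was stated for the adults. Both sexes were used at each stage, but the sex of each library was not given. Between 16738863 and 28537311 read pairs were counted on genes in each embryo (median 24687556), 36421545 in adult 1 and 31191117 in adult 2. Embryos 1 and 4 stood apart, since genes received 59.7% and 62.8% of their read pairs and at least 73.9% of those of each remaining embryo. Pairs mapping to several places made up 21.7% and 26.1% in this pair and at most 19.7% elsewhere. Levels are given as CPM, counts relative to library size after TMM scaling, and means with their SD.

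Thyroid-stimulating hormone is a dimer of an alpha subunit, encoded by *Cga* and shared with the gonadotrophins, and a beta subunit of its own, encoded by *Tshb*. In the adult axis, hypothalamic TRH acts on thyrotrophs through the receptor encoded by *Trhr*, and thyroid hormone feeds back on them: the deiodinase made from *Dio2* turns thyroxine into the active hormone, which binds the nuclear receptor made from *Thrb*. GATA2 and POU1F1 act together on *Tshb* in the mature cell, whereas an early population at the rostral tip of the pouch, which contributes to the pars tuberalis, makes *Tshb* without POU1F1; ISL1 is a LIM-homeodomain factor of the developing pouch that is kept in thyrotrophs.

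The first question was which components of the thyrotroph were already transcribed in the pouch and which only in the adult gland. A gene was called different between stages at an adjusted p below 0.05 in edgeR's quasi-likelihood test with a fold change above 4. By this rule 3 of the 6 genes were called, all higher in the adult (*Trhr*, *Dio2* and *Thrb*), and none higher in the embryo. Across all genes tested, 25.8% were called, 14.6% higher in the adult and 11.3% higher in the embryo. Counts called per list are to be read beside these shares. *Isl1* also passed the adjusted p, so that 4 of the 6 passed it at any fold change, against 51.4% of all genes tested. The median log2 fold change, embryo over adult, was −3.55 for the 6 genes and −0.04 for all genes tested. No gene of the 6 lay near −3.55. *Trhr*, *Dio2* and *Thrb* were at −7.52, −6.66 and −6.46, and *Tshb*, *Gata2* and *Isl1* at −0.64, 0.48 and 1.04. In whole tissue, fewer cells of a type and less RNA per cell cannot be told apart.

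**Figure D1:**
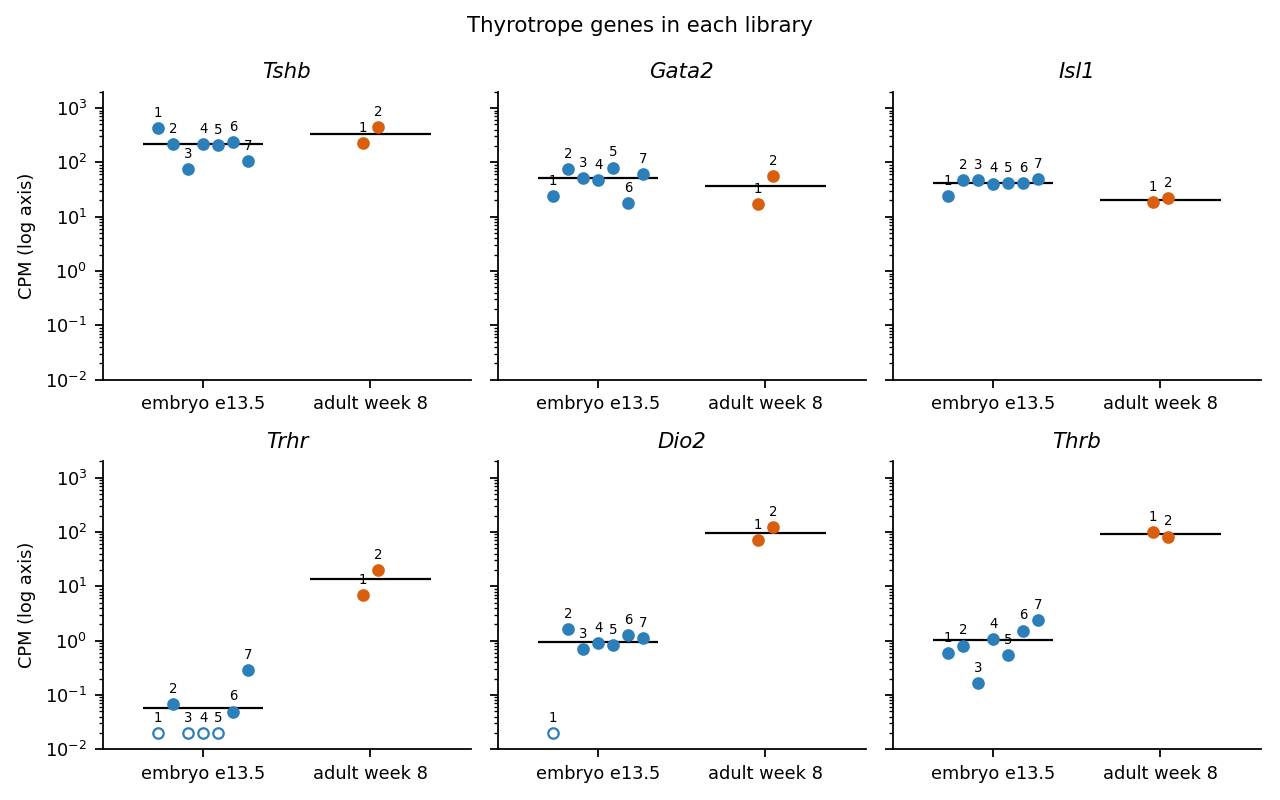
CPM (log scale) of each thyrotroph gene in the 7 embryos and 2 adults, with 1 numbered point per library, open points for 0 counts and a line at each group mean. The groups overlap for *Tshb* and *Gata2*, every embryo lies above both adults for *Isl1*, and every embryo lies below both adults for *Trhr*, *Dio2* and *Thrb*.

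*Tshb* (ENSMUSG00000027857) lies on the minus strand of chromosome 3, from 102775465 to 102782718 in GRCm38. Its product gives the hormone its specificity, so its transcript is the defining one of the cell type. In the embryos it ranged from 76.4 CPM in embryo 3 through a median of 219.5 to 432 CPM in embryo 1, and it stood at 229 CPM in adult 1 and 440.1 CPM in adult 2. The groups overlapped: 5 embryos were below both adults, 2 lay between them, and none was above both. Mean levels were 215 ± 115 CPM (n = 7) and 334 ± 149 CPM (n = 2), with a log2 fold change of −0.64 (SE 0.47, adjusted p 0.267). By mean CPM, *Tshb* was at rank 674 of the genes tested in the pouch and at rank 210 in the adult gland. In single libraries its rank was between 302 and 2580 in the embryos, 420 in adult 1 and 120 in adult 2, so that these ranks overlapped too.

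The size of the *Tshb* difference depended on how length and base composition were treated. The gene is annotated with 6 transcripts. The longest protein-coding transcript has 605 bases, while a transcript with a retained intron has 4396, so that the union of all exons spans 4555 bases. Corrected for GC content and the length of the exon union, the log2 fold change was 0.084 (adjusted p 0.904). With the properties of the longest protein-coding transcript, a correction chosen after seeing the data, it was −2.05 (SE 0.41, adjusted p 0.00162), which passed both thresholds in favour of the adult. Single libraries moved it as well, from −1.06 without adult 1 to −0.10 without adult 2.

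*Cga* (ENSMUSG00000028298) encodes the alpha subunit and lies on the plus strand of chromosome 4, from 34893779 to 34907370. It ranged from 509 through a median of 879.9 to 1282 CPM in the embryos, and stood at 7837 CPM in adult 1 and 3845 CPM in adult 2. All embryos were below both adults, and *Cga* fell by 2.76 on the log2 scale in the embryo relative to the adult (SE 0.34, adjusted p 2.1e-05). The log2 fold change was −2.17 without adult 1, −3.75 corrected by exon union and −3.96 corrected by protein-coding transcripts. The 250 bases upstream of each start are shown for the genes of both subunits, which were present at both stages, and for *Dio2*, which was high only in the adult. The windows came from RefSeq on GRCm38.p6, read 5′ to 3′ on the gene's strand: chr3:102782715-102782964 (minus) for *Tshb*, chr4:34893529-34893778 (plus) for *Cga* and chr12:90739039-90739288 (minus) for *Dio2*.
Tshb: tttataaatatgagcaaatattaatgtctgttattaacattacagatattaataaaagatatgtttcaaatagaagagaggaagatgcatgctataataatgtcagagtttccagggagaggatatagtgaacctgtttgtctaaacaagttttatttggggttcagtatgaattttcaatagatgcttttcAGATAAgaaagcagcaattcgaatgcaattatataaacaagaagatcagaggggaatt
Cga: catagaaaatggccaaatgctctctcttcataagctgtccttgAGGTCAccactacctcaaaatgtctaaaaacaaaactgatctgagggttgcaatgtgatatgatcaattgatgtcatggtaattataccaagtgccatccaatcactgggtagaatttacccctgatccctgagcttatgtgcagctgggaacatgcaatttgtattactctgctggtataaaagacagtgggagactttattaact
Dio2: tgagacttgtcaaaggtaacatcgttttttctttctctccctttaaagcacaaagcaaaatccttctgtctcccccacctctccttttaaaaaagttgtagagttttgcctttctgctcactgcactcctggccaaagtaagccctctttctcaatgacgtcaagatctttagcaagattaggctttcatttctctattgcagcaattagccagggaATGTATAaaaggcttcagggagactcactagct
Capitals mark matches, on either strand, to 4 motifs, no match overlapping another: a POU1F1 element (ATGNATA), an element known to be bound by factors of the GATA family, with the letters AGATAA (or with T as the first letter, with G as the last, or with both changes), a PITX element (TAATCC) and a thyroid hormone receptor motif (AGGTCA). Of the 6 thyrotroph genes, 5 were matched to windows, and *Trhr* was not. The *Tshb* window held a GATA element 58 to 53 bases before the start, the *Cga* window a receptor motif 207 to 202 bases before it, and the *Dio2* window a POU1F1 element 33 to 27 bases before it. RefSeq starts need not match the annotated gene limits: the *Dio2* window ran from 90739039, while the annotated gene reached only to 90738438. Of 2 windows for *Thrb*, that at the first RefSeq start held a PITX element and a receptor motif. It lay at 17660710 to 17660959, inside the annotated gene, with 68 bases in annotated exons. The window at the second start held a POU1F1 element 170 to 164 bases before it. The *Isl1* window held a PITX and a GATA element. Neither *Gata2* window held any of the 4 motifs, and all 250 bases of the second lay in annotated exons. Among 32817 windows of the same length, 7.93% held the POU1F1 element, 26.6% a GATA element, 6.25% the PITX element and 14.0% the receptor motif. A match is a description, not a site or a cause.

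The share of *Tshb* among hormone transcripts was then described at each stage. Each anterior pituitary cell type is known by the hormone it makes, and *Gh*, *Prl*, *Pomc*, *Lhb*, *Fshb*, *Cga* and *Tshb* together cover these hormones. Counts were divided by the length of the longest protein-coding transcript, so that the shares compare transcripts per length. *Tshb* made up 27.3, 20.9, 8.25, 15.9, 19.1, 26.1 and 15.5% of the summed hormone transcripts per length in embryos 1 to 7, and 0.222 and 0.420% in adults 1 and 2. Every embryo was above both adults. The means were 19.0 ± 6.603% (n = 7) and 0.321 ± 0.140% (n = 2). Their difference of 18.7 percentage points had a two-sided exact permutation p of 0.0278, the smallest that 36 placements of the adult labels can give. The sum holds *Gh*, *Prl* and *Pomc*, which were far higher in the adult. A gene that did not rise with them would separate the stages in the same way. The p thus does not bear on the level of *Tshb*, which overlapped between stages.

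The other shares show where the difference lay. In the embryos *Cga* held 68.1 ± 10.2% and *Pomc*, the corticotroph and melanotroph precursor, 12.8 ± 5.47%, while *Gh* and *Prl* held 0.0255% and 0.0195%. In the adults *Gh*, the growth hormone of somatotrophs, held 39.6 ± 4.52%, *Prl*, the prolactin of lactotrophs, 29.9 ± 15.4%, *Pomc* 24.8 ± 13.5% and *Cga* 4.83 ± 2.38%. With *Gh* and *Prl* left out of the sum, the *Tshb* share was 19.0 ± 6.61% in the embryos and 1.04 ± 0.0905% in the adults. With division by the union of all exons, which was added once the data had been seen, the shares were 4.08 ± 1.63% and 0.0514 ± 0.0206%. Unstranded counts gave 28.3 ± 8.39% and 0.330 ± 0.140%, and counts not divided by length 15.7 ± 5.47% and 0.212 ± 0.0884%. The exact permutation p was 0.0278 in each of these versions, which is the smallest it can be and so says nothing of their stability. Without either adult only 8 placements remain, and the exact permutation p was 0.125, again the smallest possible.

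**Figure D2:**
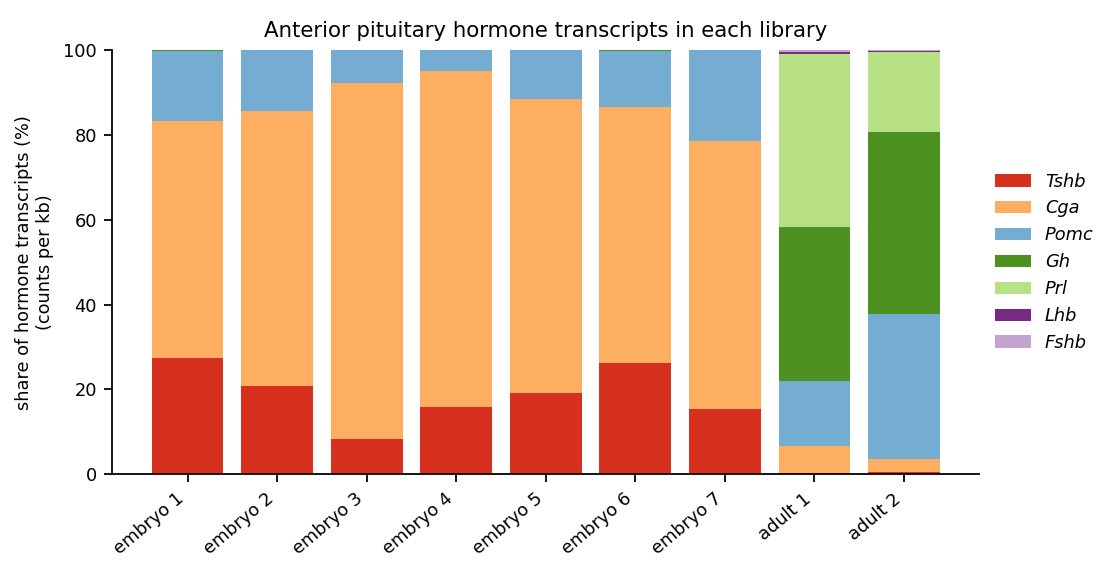
Share (percent) of each hormone gene in the summed counts per kb of 7 hormone genes, with 1 stacked bar per library. *Cga* and *Tshb* fill most of each embryo bar, *Tshb* taking 8.25 to 27.3%, while *Gh*, *Prl* and *Pomc* fill most of both adult bars, where *Tshb* takes 0.222 and 0.420%.

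Subunit balance was described after the values were seen, with no test. Alpha subunit is usually made in excess in the pituitary, so that the beta subunit limits how much hormone can form. Per length, there were between 9.82 and 48.8 *Tshb* transcripts for every 100 of *Cga* in the embryos (median 27.6), lowest in embryo 3 and highest in embryo 1, against 3.41 in adult 1 and 13.4 in adult 2. Adult 2 was thus within the embryo range and adult 1 below it. Divided by the union of all exons, the numbers were 1.76 to 8.75 in the embryos (median 4.94), 0.611 in adult 1 and 2.40 in adult 2. Among the beta subunits *Tshb*, *Lhb* and *Fshb*, *Tshb* made up 99.4 to 100% in the embryos, 20.04% in adult 1 and 56.5% in adult 2. Of the 7 glycoprotein subunit and receptor genes listed, 6 were tested, and 3 were called higher in the adult (*Cga*, *Lhb* and *Fshb*) and 1 higher in the embryo (*Gpha2*), with a median log2 fold change of −1.70. *Gpha2*, an alpha subunit of an ancestral glycoprotein hormone, ranged from 1.70 to 9.38 CPM in the embryos against 0.436 and 0.590 CPM in the adults (log2 fold change 2.92), and it was not called when corrected for length and GC content (1.26, adjusted p 0.0963) or without adult 1 (2.697, adjusted p 0.0645). *Gphb5*, the beta subunit of that hormone, had no counts in any library. *Tshr*, the receptor for thyroid-stimulating hormone, ranged from 0.842 to 9.47 CPM in the embryos against 1.14 and 1.10 CPM in the adults, and its log2 fold change of 1.99 was just under the threshold (adjusted p 0.0350). It passed in 10 of 21 alternatives, among them both corrections for length and GC content (2.56 by exon union and 2.71 by protein-coding transcripts). Of the 7 pituitary hormone genes, 6 were called, all higher in the adult, with a median log2 fold change of −10.37, and *Tshb* was the exception. For both lists, the shares of all genes tested were 14.6% called higher in the adult and 11.3% higher in the embryo.

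The receptor for the hypothalamic signal was nearly silent in the pouch. *Trhr* couples TRH to phospholipase C in thyrotrophs and, in the adult, also in lactotrophs. *Trhr* (ENSMUSG00000038760) lies on the plus strand of chromosome 15, from 44196135 to 44235912. Its lowest and median values in the embryos were both 0 CPM and its highest 0.289 CPM, against 6.93 CPM in adult 1 and 20.2 CPM in adult 2. All embryos were below both adults: 4 embryos had no count, and 9 of the 12 counts in the pouch came from embryo 7, whereas the adults had 286 and 717 counts. The log2 fold change was −7.52 (SE 0.82, adjusted p 8.4e-06), and the ratio of summed counts scaled for depth, adult over embryo, was 175 with a 95% counting interval of 99.8 to 340.2. Counting intervals cover counting error only. The log2 fold change was −8.94 without embryo 7, −6.61 without adult 2, and −6.85 and −6.46 with the corrections by exon union and by protein-coding transcripts.

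TRH binding is followed by hydrolysis of membrane phosphoinositides, release of calcium and activation of protein kinase C. Of the 14 genes listed for TRH signalling, 13 were tested, and 5 were called higher in the adult (*Trhr*, *Plcb1*, *Plcb4*, *Itpr1* and *Prkca*) and 1 higher in the embryo (*Trh*). The median log2 fold change was −1.47. Of all genes tested, 14.6% were called higher in the adult and 11.3% higher in the embryo. Corrected for length and GC content, only *Trhr* and *Trh* of these were still called, while 4249 of all 19371 genes tested were. The log2 fold changes of *Plcb1* and *Plcb4*, which encode phospholipases, went from −3.28 to −1.80 and from −2.55 to −1.25. *Itpr1*, the calcium channel, went from −3.12 to −1.59 and *Prkca*, a kinase, from −2.15 to −1.09. *Trh*, the peptide precursor itself, ranged from 0.733 through a median of 1.42 to 5.71 CPM in the embryos, against 0 CPM in adult 1 and 0.0843 CPM in adult 2. Its 284 embryo counts and 3 adult counts gave a ratio scaled for depth of 45.2, embryo over adult (95% counting interval 15.3 to 220.3). Both adults were at or under the floor of 3 counts, so the size of the ratio rested on few counts. The log2 fold change of *Trh* was 5.44, and 4.44 without adult 1 and 8.63 without adult 2. *Igsf1*, a membrane protein needed for normal *Trhr* levels, ranged from 79.5 to 308 CPM in the embryos and stood at 368 and 328 CPM in the adults. *Trhr2*, a second TRH receptor gene, was not tested and reached 0.270 CPM at most in the embryos.

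Markers of neighbouring tissue were read beside the *Trh* values, since *Trh* is made in the hypothalamus. The shares of all genes tested were 11.3% called higher in the embryo and 14.6% higher in the adult. The list for hypothalamus, tanycytes and pituicytes had 3 of 6 genes called higher in the embryo and 2 higher in the adult, with a summed level between 63.9 and 196 CPM in the embryos (median 115) and of 13.1 and 19.2 CPM in the adults. Its most abundant gene by embryo mean was *Rax*, although *Fgf10* was above it in embryo 7 (51.6 against 37.7 CPM). *Avp* had no counts in any embryo, which made it at least 11.8-fold higher in the adult against a floor of 3 counts in the shallowest embryo. The part of such tissue in the *Trh* result was not tested.

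Feedback by thyroid hormone needs its local activation and its receptor, and both genes separated the stages. *Dio2* (ENSMUSG00000007682) lies on the minus strand of chromosome 12, from 90724552 to 90738438. It ranged from 0 CPM in embryo 1 through a median of 0.917 to 1.62 CPM in embryo 2, and stood at 69.8 CPM in adult 1 and 124 CPM in adult 2. All embryos were far below both adults, whose mean was 105-fold higher (log2 fold change −6.66, SE 0.51, adjusted p 4.8e-07). Corrected for length and GC content, the log2 fold change was −5.78 by exon union and −5.18 by protein-coding transcripts. An RNA on the opposite strand overlaps *Dio2*, but 0.613% of *Dio2* reads in the embryos and 0.370% in the adults were on the other strand. As printed above, the window upstream of *Dio2* held a POU1F1 element, as did 7.93% of the 32817 windows of that length. Any part of this match in the *Dio2* level was not tested.

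*Thrb* (ENSMUSG00000021779) spans chromosome 14 from 17660261 to 18038090 on the plus strand. It makes several receptor isoforms from separate promoters, among them one typical of the pituitary and hypothalamus, which counts per gene do not separate. Its level ranged from 0.162 CPM in embryo 3 through a median of 0.811 to 2.41 CPM in embryo 7, and stood at 100.01 CPM in adult 1 and 82.3 CPM in adult 2. All embryos were below both adults, and the mean was 89.8-fold higher in the adult (log2 fold change −6.46, SE 0.52, adjusted p 7.3e-07). The same corrections gave −5.49 and −5.10. *Thra*, the other nuclear receptor gene for the hormone, ranged from 98.9 through 129 to 231 CPM in the embryos and stood at 125 and 121 CPM in the adults. The stages overlapped for *Thra* and no difference passed the test (log2 fold change 0.23, adjusted p 0.569). Of the 12 receptor and cofactor genes listed, 1 was called, *Thrb*, against 25.8% of all genes tested. In this list 2 were called in several alternatives, among them scaling by library size alone, a replicate block, and fits without embryo 7 and without embryos 1 and 4. The list also depended on the adults: *Ncoa1*, a coactivator gene, was at −2.07 without adult 1. With at least 10 counts in every library, 0 of 11 tested were called, *Thrb* not being tested. Their median log2 fold change was −1.07, and −0.08 when corrected for length and GC content.

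Thyroid hormone must also enter the cell, and it can be held or destroyed there. Of the 10 genes for transport, deiodination and binding, 3 were called higher in the adult (*Dio1*, *Dio2* and *Slc7a8*), against 14.6% of all genes tested. Another 2 were called higher in the embryo (*Crym* and *Dio3*), against 11.3%, and the median log2 fold change of the 10 was −0.27. Without adult 2 this total of 5 became 2 of 9 tested. *Crym*, a cytosolic protein that binds the active hormone, ranged from 125 through 198 to 245 CPM in the embryos and stood at 2.59 and 3.18 CPM in the adults. Every embryo was above both adults (log2 fold change 6.04, SE 0.40, adjusted p 1.5e-07). *Dio3*, the inactivating deiodinase, ranged from 0 through 1.44 to 3.68 CPM in the embryos against 0.121 and 0.0281 CPM in the adults. Its groups overlapped, and its log2 fold change of 4.28 (adjusted p 0.0177) did not pass with a replicate block (3.03, adjusted p 0.237). Nor did it pass without adult 1 or without adult 2, where the log2 fold change was 5.55 and 3.63. *Slc7a8*, an amino acid transporter that carries the hormone, had a log2 fold change of −2.31, and of −1.98 without adult 2.

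Genes known to respond to thyroid hormone give a readout of its action in a tissue. All 4 genes listed were called higher in the adult, against 14.6% of all genes tested, with a median log2 fold change of −4.86. *Dio1*, 1 of the 4, was also counted in the list for deiodination. *Klf9*, a transcription factor gene, ranged from 2.28 to 9.10 CPM in the embryos and stood at 65.7 and 65.2 CPM in the adults. *Hr*, a corepressor gene, ranged from 0.635 to 3.15 CPM against 52.7 and 39.1 CPM, and *Thrsp*, a lipogenic gene, from 0 to 1.62 CPM against 30.1 and 27.8 CPM. No embryo reached either adult for any of these. *Dio1*, an outer-ring deiodinase gene, had 4 counts in the embryos, all in embryo 6, and 79 in the adults, a ratio scaled for depth of 41.4, adult over embryo (95% counting interval 15.5 to 156). Adult 2 held 66 of these 79 counts, and without it *Dio1* was under the filter and 3 of 3 tested genes were called. Hormone levels were not measured, and whether these genes followed the hormone was not tested.

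**Figure D3:**
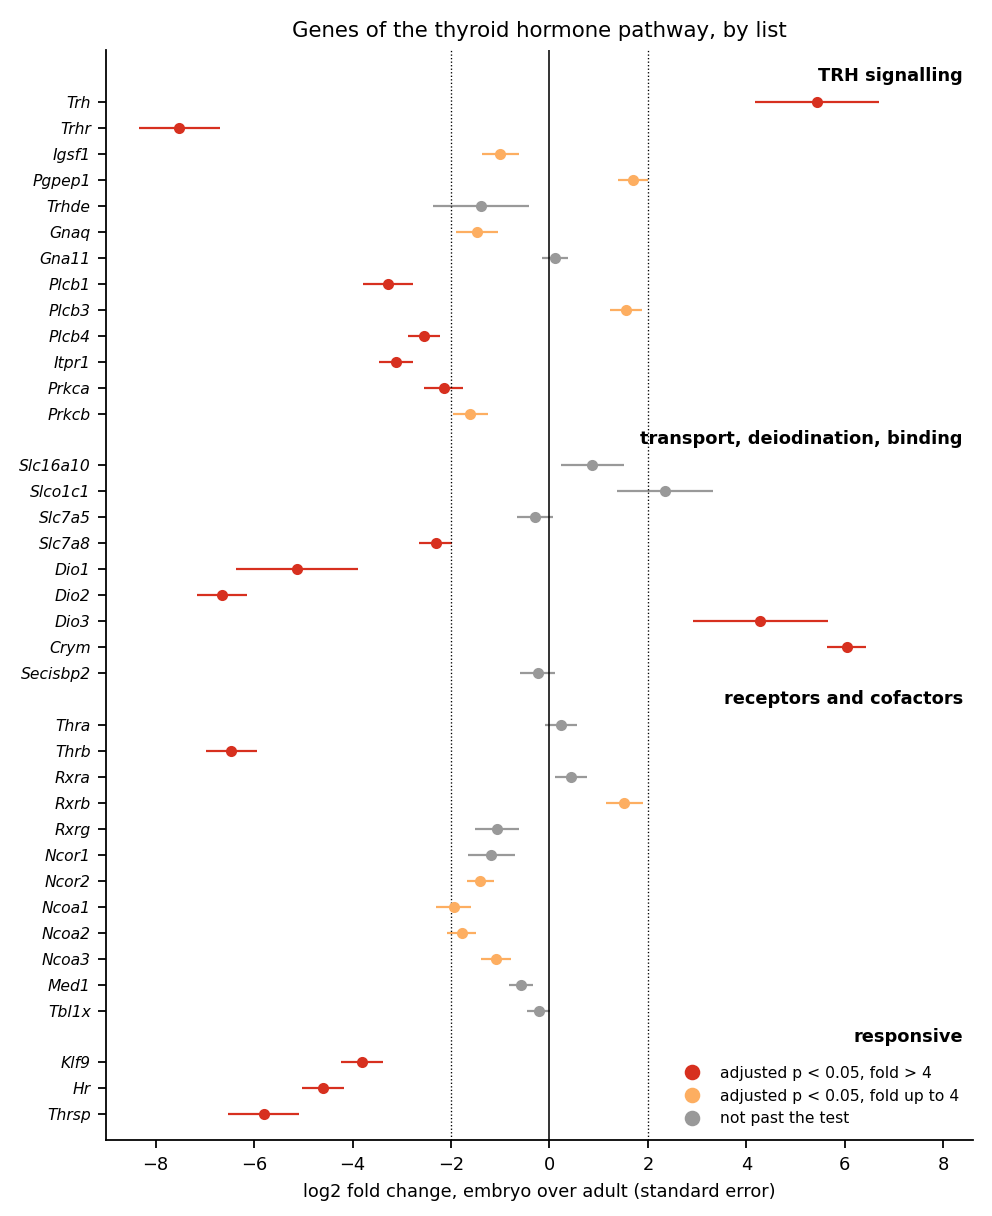
Log2 fold change, embryo over adult, of genes listed for each step of the thyroid axis, with bars for 1 SE, dotted lines at the fold threshold and called genes in red. *Crym* lies at 6.04 on the embryo side, while *Trhr* at −7.52, *Dio2* at −6.66 and *Thrb* at −6.46 lie on the adult side.

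The transcription factor genes among the 6 were compared next. GATA2 is needed for full thyrotroph and gonadotroph function, and ISL1 is present early in the ventral pouch. *Gata2* (ENSMUSG00000015053) lies on the plus strand of chromosome 6, from 88193891 to 88207032. It ranged from 17.9 CPM in embryo 6 through a median of 51.3 to 80.2 CPM in embryo 5, and stood at 17.1 CPM in adult 1 and 55.6 CPM in adult 2. The groups overlapped, with 3 embryos above both adults and 4 between them, and no difference passed the test (log2 fold change 0.48, SE 0.53, adjusted p 0.469). The adult spread set its direction: the log2 fold change was −0.15 without adult 1 and 1.55 without adult 2.

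*Isl1* (ENSMUSG00000042258) lies on the minus strand of chromosome 13, from 116298281 to 116309689. It ranged from 24.2 CPM in embryo 1 through a median of 42.1 to 48.5 CPM in embryo 7, and stood at 18.5 CPM in adult 1 and 22.1 CPM in adult 2. Every embryo was above both adults, embryo 1 standing apart from the other 6, which lay close together. The mean was 2.06-fold higher in the embryo (log2 fold change 1.04, SE 0.30, adjusted p 0.0104), under the fold threshold. The adjusted p did not pass without adult 1 (0.130), without adult 2 (0.0646), under scaling by library size alone (0.0920) or with a replicate block (0.105). *Isl1* is also made by sensory neurons. Of 5 sensory ganglion markers, 4 were tested and 0 were called by edgeR, 2 having an unadjusted p below 0.05. DESeq2 called 2, and edgeR 1 without embryo 2, 3, 4, 5 or 7 and without embryos 1 and 4. With edgeR, 1 was also called with no filter on low counts, with a replicate block and with the correction by protein-coding transcripts. At least 1 of these markers was thus called in 10 of 21 alternatives. Their sum was 5.17 to 13.0 CPM in the embryos (median 9.52) and 4.85 and 4.02 CPM in the adults, with *Isl2* the most abundant, and *Tlx3* was at or under 3 counts in both adults. Their part in the *Isl1* result was not tested.

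Other factors of the pituitary lineages were described beside them. Of 15 lineage factors, 8 were not called, 3 were called higher in the embryo, *Lhx4* and *Hesx1* among them, and 4 higher in the adult, *Pou1f1*, *Nr4a1* and *Zbtb20* among them. Across all genes tested 11.3% and 14.6% were called in these directions, and the median log2 fold change of the 15 was 0.00. *Pou1f1*, which drives thyrotroph, somatotroph and lactotroph fates, ranged from 0.494 through 0.733 to 2.695 CPM in the embryos and stood at 138 and 89.3 CPM in the adults. Every embryo was below both adults (log2 fold change −6.39, SE 0.49, adjusted p 5.1e-07), while *Tshb* overlapped between the same libraries. *Hesx1*, an early repressor (log2 fold change 5.77), and *Lhx4*, a LIM factor of the early pouch (4.29), were above both adults in every embryo. *Zbtb20*, a repressor needed for lactotroph identity, had a log2 fold change of −3.04, and of −0.74 when corrected for length and GC content.

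Per length, the order of levels differed between stages. On the scale of CPM per kb of the longest protein-coding transcript, the embryo means ran from *Tshb* at 355 ± 189 over *Isl1* at 16.6 ± 3.33 and *Gata2* at 14.2 ± 6.59 to *Thrb* at 0.164 ± 0.121, *Dio2* at 0.159 ± 0.0881 and *Trhr* at 0.0161 ± 0.0293. *Isl1* and *Gata2* differed by less than their spread, as did *Thrb* and *Dio2*. In the adults, on the same scale, *Tshb* at 553 ± 247 was followed by *Dio2* at 16.6 ± 6.54, *Thrb* at 14.7 ± 2.02, *Gata2* at 10.2 ± 7.63, *Isl1* at 8.07 ± 0.997 and *Trhr* at 3.75 ± 2.59. Among the adult genes below *Tshb*, neighbours differed by less than the larger of their spreads, except *Isl1* and *Trhr*. Per kb of the exon union, *Tshb* was at 47.1 in the embryos and 73.4 in the adults, still the highest of the 6, and *Dio2* (0.159) stood above *Thrb* (0.137) in the embryos.

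The pars tuberalis is the other pituitary site of *Tshb*, and its cells carry the melatonin receptor *Mtnr1a*. Of its 3 listed markers, 2 were called higher in the embryo, against 11.3% of all genes tested. The sum of the 3 was between 61.8 and 130 CPM in the embryos (median 114) and 44.8 and 50.8 CPM in the adults. *Mtnr1a* ranged from 5.27 through 17.7 to 22.7 CPM in the embryos and stood at 0.0970 and 0.365 CPM in the adults (log2 fold change 6.18, adjusted p 1.6e-05). The adults had 4 and 13 counts of it, and the log2 fold change was 5.48 without adult 1 and 7.35 without adult 2. *Cck*, a peptide gene, had a log2 fold change of 3.04, and of 1.84 when corrected for length and GC content. *Eya3*, a coactivator gene and the most abundant of the 3 at both stages, overlapped between stages (log2 fold change 0.59, adjusted p 0.168). The part of pars tuberalis cells in the *Tshb* level was not tested.

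Marker lists of other endocrine cell types were read beside the *Tshb* share. Their counts called stand beside 14.6% of all genes tested called higher in the adult. Summed somatotroph and lactotroph markers, with *Gh* the most abundant by stage mean, were between 0.128 and 3.003 CPM in the embryos (median 0.494). They were at 115687 and 93352 CPM in the adults, and 3 of 3 were called higher in the adult. *Prl* was above *Gh* in adult 1 and in embryos 5 and 6. Gonadotroph markers summed to 1.63 to 4.75 CPM (median 3.04) against 1976 and 706 CPM, led by *Nr5a1* in the embryos and *Fshb* in the adults, and 4 of 4 were called higher in the adult. Corticotroph and melanotroph markers, led by *Pomc*, summed to 123 to 469 CPM (median 231) against 27270 and 62275 CPM, again with 4 of 4 called higher in the adult. These lists give the endocrine setting in which the *Tshb* share fell from embryo to adult.

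Markers of non-endocrine cells were summed in the same way. Their counts called stand beside 11.3% of all genes tested called higher in the embryo and 14.6% higher in the adult. Mesenchyme markers, led by *Col3a1* in the embryos, summed to 637 to 2268 CPM (median 1599) against 563 and 352.5 CPM, with 5 of 6 called higher in the embryo. Endothelial markers, led by *Cldn5* in the embryo mean but by another gene in embryos 2, 5, 6 and 7, summed to 188 to 665 CPM (median 351). They were at 141 and 89.2 CPM in the adults, with 2 of 8 called higher in the embryo. The number was 4 with a replicate block, without embryos 1 and 4, and with the correction by protein-coding transcripts. *Gata2* is also made by endothelial and blood cells. Erythroid markers, led by *Hbb-y* in the embryos, summed to 135033 CPM in embryo 1, 175831 CPM in embryo 4 and 5284 to 15587 CPM in the other embryos, against 291 and 622 CPM in the adults, with 4 of 5 called higher in the embryo, 1 without adult 1 and 2 without adult 2. Without embryos 1 and 4 the log2 fold changes were −0.96 for *Tshb*, 0.67 for *Gata2* and 1.19 for *Isl1*, and those of *Trhr*, *Dio2* and *Thrb* were −7.18, −6.42 and −6.34. Neuron markers summed to 47.6 to 312 CPM (median 83.8) against 298 and 281 CPM, led by *Tubb3* and *Snap25*, with 1 of 4 called higher in the adult. In a fit without globin genes, chosen after seeing the data, they were −0.60 for *Tshb*, 0.52 for *Gata2*, 1.09 for *Isl1*, −7.47 for *Trhr*, −6.62 for *Dio2* and −6.41 for *Thrb*. For these lists no defining marker was at 0 in every library of a stage, and apart from these fits their part in the results was not tested.

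The single embryos gave a second view, on whether the thyrotroph genes rose and fell together at e13.5. Genes of 1 cell type can vary together when the number of its cells varies between dissections. Correlations of log2(CPM + 0.5) were computed over the 7 embryos for the 21 pairs among the 6 genes and *Cga*, each with a two-sided exact permutation p over all orders of the embryos. No pair passed after Benjamini-Hochberg adjustment (smallest adjusted p 0.200), while 3 pairs had an unadjusted p below 0.05 for Pearson's r and 2 for Spearman's rho. The sign was positive for 11 of the 21 pairs.

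*Tshb* and *Cga*, the subunits of 1 hormone, had an r of 0.37 (exact p 0.408, adjusted 0.535) and a rho of 0.29 (exact p 0.556, adjusted 0.817), and r was 0.21 without embryos 3 and 7, the farthest from the *Tshb* median, and 0.0091 under scaling by library size alone. *Tshb* and *Isl1* ran in opposite directions, with an r of −0.79 (exact p 0.0274, adjusted 0.200) and a rho of −0.79 (exact p 0.0480, adjusted 0.324). That r was −0.97 without embryos 3 and 7, −0.61 (exact p 0.155) under scaling by library size alone and −0.75 (exact p 0.167) without embryos 1 and 4. Embryo 1 held both the highest *Tshb* and the lowest *Isl1*. *Tshb* and *Gata2* had an r of −0.46 (exact p 0.286, adjusted 0.535) and a rho of −0.64 (exact p 0.139, adjusted 0.324), with an r of −0.59 without embryos 3 and 7. The rho of this pair was 0.036 under scaling by library size alone and −0.10 without embryos 1 and 4. *Trhr* and *Cga* had an r of −0.84 (exact p 0.00952, adjusted 0.200) and a rho of −0.87 (exact p 0.0286, adjusted 0.324), and *Trhr* had no counts in 4 embryos. That r was −0.67 (exact p 0.0762) under scaling by library size alone. Without embryos 2 and 7 it was −0.81, but the only *Trhr* count left was 1 in embryo 6, so this value says nothing of stability. *Trhr* and *Thrb* had an r of 0.77 (exact p 0.0286, adjusted 0.200) and a rho of 0.73 (exact p 0.0857, adjusted 0.324), with an r of 0.83 (exact p 0.0667) without embryos 1 and 4. Without embryos 2 and 7 the r was 0.70, which rested on the same 1 count and says nothing of stability either. *Isl1* and *Dio2* had an r of 0.88 (exact p 0.0589, adjusted 0.309) and a rho of 0.43 (exact p 0.354, adjusted 0.675), and r was 0.069 without embryos 1 and 7 and 0.0029 without embryos 1 and 4, so that it rested on embryos that included embryo 1 in both cases.

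**Figure D4:**
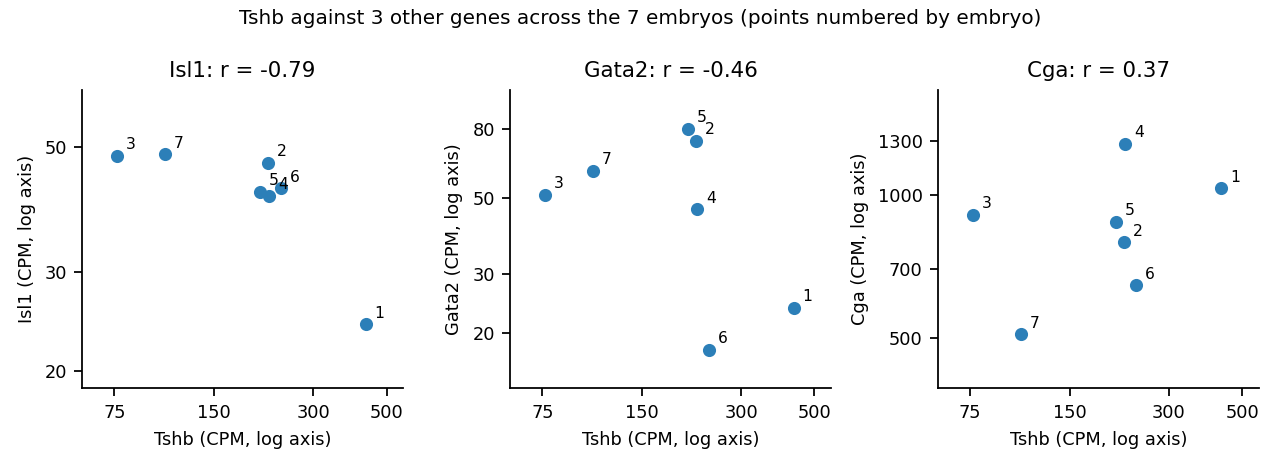
CPM of *Tshb* (log axis) against CPM of *Isl1*, *Gata2* and *Cga* (log axes), with 1 numbered point per embryo. Embryo 1 holds the highest *Tshb* with the lowest *Isl1* (r −0.79), while r is −0.46 with *Gata2* and 0.37 with *Cga*, and no pair passed adjustment.

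The genes whose levels followed *Tshb* most closely over the 7 embryos were looked up among the 7206 tested genes with a mean of at least 20 CPM in the embryos, as a description with no test. They were *Serping1* (r 0.90), *Tmem37* (0.90), *Nbdy* (0.89), *Glrx2* (0.88) and *Fstl1* (0.88). *Tmem37* and *Fstl1* were called higher in the embryo (log2 fold changes 2.17 and 2.89), and *Serping1*, *Nbdy* and *Glrx2* were not called.

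The 2 adults differed from each other, and this was described after the values were seen, with no test. The ratio of adult 2 to adult 1 was 1.92 for *Tshb*, 3.26 for *Gata2*, 2.91 for *Trhr*, 1.77 for *Dio2*, 1.19 for *Isl1* and 0.823 for *Thrb*. The median ratio was 0.978 over 15152 genes with an adult mean of at least 1 CPM, of which 3.46% had a ratio at or above that of *Dio2*. The excess in adult 2 was not limited to the thyrotroph genes: the corticotroph genes *Pomc* and *Tbx19* had ratios of 2.29 and 1.502, and *Nr4a1*, an early-response factor gene, 4.31. Of the 4 gonadotroph markers, 3 ran the other way, adult 1 having 2.03 times the *Lhb*, 3.61 times the *Fshb* and 2.01 times the *Gnrhr* of adult 2, while *Nr5a1* was at 51.6 and 50.8 CPM. *Cga*, which thyrotrophs and gonadotrophs share, was 2.04 times as high in adult 1. *Pou1f1* was 1.54 times as high in adult 1, and *Prl* 2.11 times. Whether sex, cell number or dissection went with these differences cannot be told apart with 2 libraries.

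**Figure D5:**
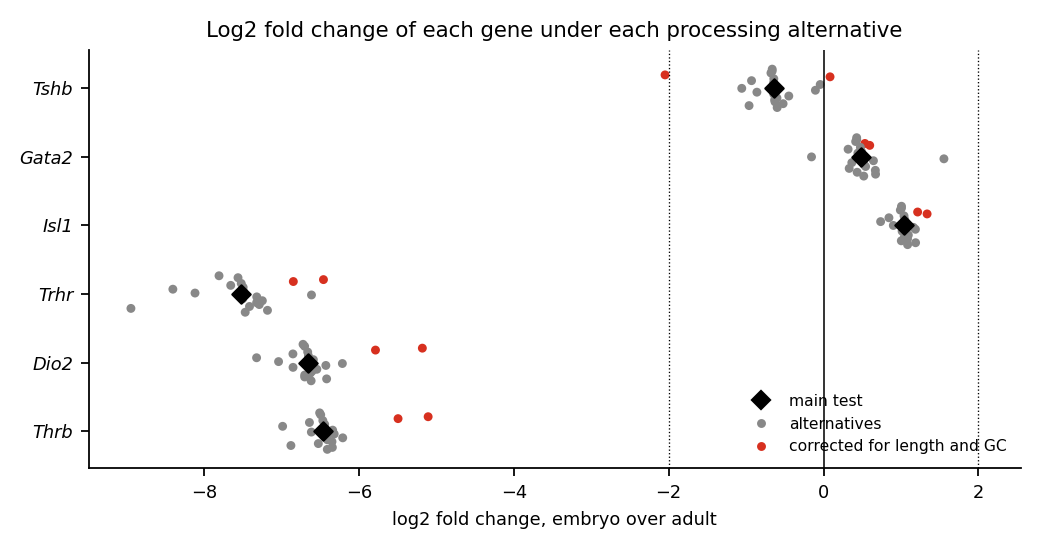
Log2 fold change, embryo over adult, of each thyrotroph gene under every alternative setting, with the value as reported in black, corrections for length and GC content in red and dotted lines at the fold threshold. *Trhr*, *Dio2* and *Thrb* stay beyond the threshold wherever they were tested, while *Tshb* runs from −2.05 to 0.084 and *Gata2* from −0.15 to 1.55.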

How the data were processed

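RNA was measured in 7 embryo and 2 adult libraries. The authors trimmed reads with Trimmomatic 0.39, aligned them to GRCm38 (mm10) with STAR 2.7.5b and the Ensembl 96 annotation, and deposited raw counts per gene; the strand-specific column of the directional libraries was used. All 55450 identifiers were matched to GENCODE M21 symbols. Genes averaging 5 or more counts per library were tested for stage with edgeR 4.0.16 (R 4.3.3; TMM scaling, quasi-likelihood test, Benjamini-Hochberg over 19371 genes; adjusted p below 0.05 and fold change above 4), tested on simulated data. A floor of 3 counts was at most 0.220 CPM in the embryos and 0.0843 CPM in the adults. The *Tshb* share and the relations between embryos were tested by exact permutation. Alternatives were DESeq2 1.42.0, other scalings and filters, unstranded counts, length and GC correction, a replicate block and leaving out libraries. The correction with protein-coding transcripts, the fit without globin genes and the share by exon union were chosen after seeing the data. Named genes were the 6 thyrotroph genes, genes of the lists, and the 5 genes with the highest correlation with *Tshb*; genes and lists were chosen with earlier results of these data known. The sex of single libraries was not used. Some listed genes are not reported here.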

Additional observations from a re-analysis of the deposited data

Results flagged for a closer look

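In 11 of 77 series of 7 embryos compared, 1 embryo stood farther from the other 6 than a Dixon test at 95% allows. Chance gives about 1 in 20 such series only for independent normal values. These CPM series were not transformed, some lay near 0, and some sums hold genes also compared alone. The 11 are thus a description. In embryo 1 the flagged series were *Isl1*, which was low at 24.2 CPM, and *Gh* at 1.90 CPM, *Pomc* at 450.8 CPM and *Plcb1* at 4.47 CPM, which were high. The summed somatotroph and lactotroph markers (3.003 CPM) and corticotroph and melanotroph markers (469 CPM) were high in the same embryo, and hold *Gh* and *Pomc*. In embryo 4, *Trh* at 5.71 CPM and *Slc16a10*, a thyroid hormone transporter gene, at 14.3 CPM were high. *Trhr* was high in embryo 7 at 0.289 CPM, *Dio1* in embryo 6 at 0.198 CPM, both from few counts, and the summed endothelial markers in embryo 2 at 665 CPM. Embryos 1 and 4 also had the highest erythroid marker sums, 135033 and 175831 CPM. The part of blood, depth or dissection in these values was not tested.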

How the results depend on the processing

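*Trhr*, *Dio2* and *Thrb* were called higher in the adult under every alternative that tested them. A filter of at least 10 counts in every library removed all of them, so that 0 of 3 genes tested were called. With the correction by protein-coding transcripts, 4 were called, *Tshb* among them (−2.05), while the correction by exon union put *Tshb* at 0.084; the cause was not tested. Leaving out 1 library left 3 called; it gave *Tshb* −1.06 to −0.10 and *Gata2* −0.15 to 1.55, and a *Tshb* share difference of 17.3 to 20.5 percentage points, with 18.6 and 18.8 points at a permutation p of 0.125 without adult 1 and adult 2.

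Across all genes, 5001 were called; 2634 of 13491 with at least 10 counts in every library, 1744 when the test was against a fold change of 4, 8960 at a fold change above 2, and 3683 to 5290 without 1 library. Scaling by library size alone shifted the median log2 fold change of all genes by −0.22, and *Tshb* was then at −0.93.

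Replicates 1 and 2 share numbers between stages. Deviations of libraries with the same number correlated at 0.034 and 0.024. Libraries with unlike numbers reached 0.064 (embryo 3 and adult 1) and 0.072 (embryo 5 and adult 2). With 2 adults, their deviations mirror each other, so these values cannot show whether the numbers carry any pairing. With a replicate block 4800 genes were called and the median shifted by −0.17; *Tshb* was at −0.04, *Gata2* at 0.44, *Trhr* at −8.40, *Isl1* at 0.74, *Dio2* at −7.32 and *Thrb* at −6.98, and the same 3 were called, while *Isl1* no longer passed the adjusted p (0.105).

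Of 1489 alternative values for the 72 other listed genes with an adjusted p below 0.05, 1424 kept direction and call, 33 lost the call, 31 gained it and 1 turned sign (*Ncoa3*, a coactivator gene, 0.067 with the correction by protein-coding transcripts). Some listed genes above that adjusted p also turned sign under a correction, such as the cofactor genes *Ncor1*, *Med1* and *Tbl1x*, which went from −1.18, −0.59 and −0.22 to 0.15, 0.44 and 0.66 with the correction by exon union. Of 378 counts called per list, 39 moved by more than 1.5 times. Depth limits statements on *Trhr* in the pouch, with 12 counts in 7 embryos.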

Other observations

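Of the genes that overlap the thyrotroph genes and *Cga* on the other strand, *Tspan2*, which overlaps *Tshb*, had a mean of 34.5 CPM in the embryos and 98.6 CPM in the adults. Reads on the strand opposite to *Tshb* were 0.140% of its reads in the embryos and 0.270% in the adults. Embryos 1 and 4 had the lowest TMM factors, 0.816 and 0.753, against 0.902 to 1.21 in the other embryos.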
